A study of Mus musculus with 6 samples.

Results

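The enzymes that break down ethanol, acetaldehyde and acetate were followed in mouse nucleus accumbens core, ventral striatal tissue known for its role in reward. The set was a list of 10 genes chosen by name, namely Adh1, Adh5, Adh7, Aldh1a1, Aldh2, Aldh1b1, Aldh3a2, Cat, Cyp2e1 and Acss2. All 10 were in the table of 24532 genes, and 8 of them passed the filter on low counts that left 15774 genes for testing. Adh7 and Cyp2e1 did not pass it.

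Bulk messenger RNA was sequenced from 3 samples titled ethanol and 3 titled control, all from wild-type male mice that the labels call adolescent, with postnatal days 35 to 55 given as their age. Every group shared contextual fear conditioning, extinction trials and then 27 days of a drinking assay with access every other day, and tissue was taken 24 h after that assay ended. The ethanol treatment was 6 intraperitoneal injections of 20% v/v ethanol in saline over 6 h, after fear conditioning, with 1.8 g/kg in the first and 1.2 g/kg in each of the other 5. What the control mice were injected with is not given in the labels, and the treatment field has 1 entry throughout, so group membership comes from the titles. Both groups went through the drinking assay, so the comparison is not one of drinking with no drinking. Separate animals are not stated either, so the p-values reflect only how far these samples spread, which may be technical.

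Ethanol is oxidised to acetaldehyde by alcohol dehydrogenases in the cytosol, by catalase in peroxisomes and by the cytochrome P450 enzyme encoded by Cyp2e1 in the endoplasmic reticulum. Aldehyde dehydrogenases turn acetaldehyde into acetate, and acyl-CoA synthetases couple acetate to coenzyme A. The liver does most of this work through Adh1, whereas in rodent brain catalase is held to be a main route from ethanol to acetaldehyde.

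The libraries held 35898026 to 67399599 estimated reads, and 3 reads stood for 0.045 to 0.084 CPM (counts per 1e6 reads). These floors cover counting error only. Control 2 had reads for 15924 genes, against 17096 to 17707 in each of the other libraries, and lay apart from them on the first principal component, which held 35.7% of the variance. The striatal projection neuron markers Ppp1r1b, Drd1 and Drd2 were found in every library, Ppp1r1b at 486 to 1156 CPM in ethanol and 513 to 598 CPM in control. Drd1 stood at 45.0 to 58.8 CPM in ethanol and 26.9 to 41.8 CPM in control. Drd2 stood at 35.6 to 55.1 CPM in ethanol and 20.9 to 25.3 CPM in control. Neither receptor gene overlapped, beside 9.35% of all tested genes whose ethanol libraries all lay above the control libraries.

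Per length of transcript, the members fell into 7 well-expressed genes and 3 that were nearly silent. FPKM (fragments per kilobase of transcript and 1e6 reads) were summed over the transcripts of a gene. Aldh1a1, a cytosolic aldehyde dehydrogenase that also makes retinoic acid, had the highest median level of the 6 libraries, at 48.2 FPKM with a range of 28.3 to 52.5. Adh5 followed at 40.1 FPKM (36.9 to 54.6), and the ranges of these neighbours overlapped. Aldh2 came next at 27.3 FPKM (24.97 to 33.7), below Adh5 in 6 of 6 libraries. Cat at 22.7 FPKM, Acss2 at 17.6 FPKM and Aldh3a2 at 14.6 FPKM followed, and each range from Aldh2 down to Aldh3a2 overlapped that of its neighbour. Aldh1b1 was lower, at 4.75 FPKM (4.26 to 7.43), with no overlap with Aldh3a2.

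The nearly silent members were Adh1, at 0.41 FPKM (0.13 to 0.56), and Adh7 and Cyp2e1, both at 0.07 FPKM. Adh7 and Cyp2e1 could not be ordered, since their ranges overlapped and both were listed at 0 in some libraries. Among all genes of the table, 93.8% had a lower median FPKM than Aldh1a1, 65.0% had a lower one than Aldh1b1, and 42.4% had a lower one than Adh1.

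**Figure D1:**
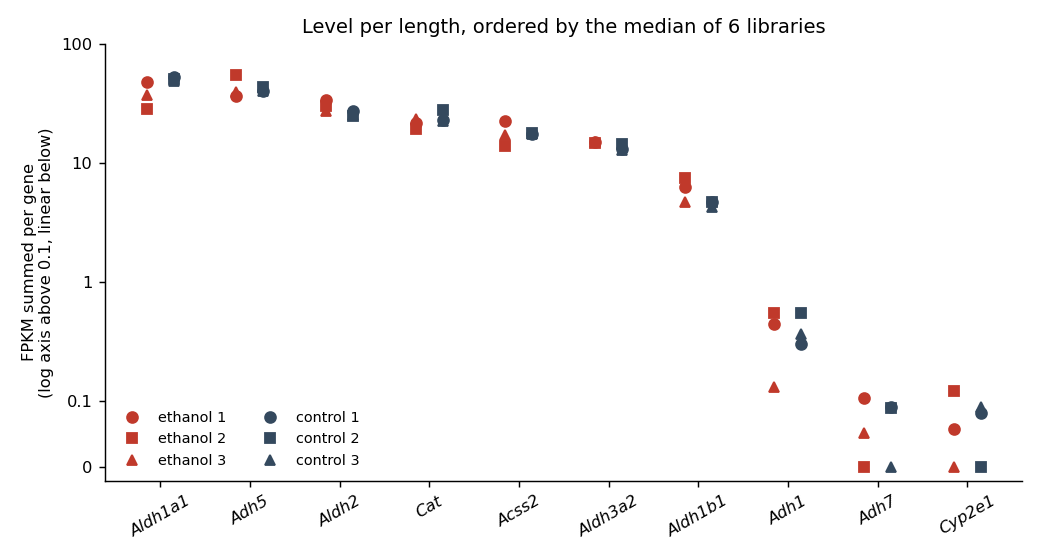
FPKM summed per gene (vertical axis, logarithmic above 0.1 and linear below) for the 10 members ordered by their median over 6 libraries, with ethanol libraries in red left of control libraries in dark blue (circle, library 1; square, library 2; triangle, library 3). The 7 genes from Aldh1a1 to Aldh1b1 lie above 4 FPKM in every library, and Adh1, Adh7 and Cyp2e1 lie below 0.6 FPKM.

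The alcohol dehydrogenase genes of the mouse lie side by side on chromosome 3. In the mm10 build Adh7 spans 138217773 to 138232042, Adh1 spans 138277645 to 138290691, and Adh5 spans 138437200 to 138455499. Adh5, the class III enzyme, handles glutathione adducts of formaldehyde and nitric oxide and has a low affinity for ethanol. It held 98.5% to 99.5% of the summed FPKM of these 3 genes in every library. Adh6a, Adh6-ps1 and Adh4, which lie between Adh1 and Adh5, were listed at 0 FPKM in all 6 libraries. To show how Adh5, Adh1 and Adh7 differ at their start sites, their windows follow. Each runs from 250 bases before to 50 bases after the RefSeq start (GRCm38.p6, plus strand). With them is that of Aldh1a1, the member with the highest median level. Capitals mark CG dinucleotides.
Adh5, chr3:138442843-138443142: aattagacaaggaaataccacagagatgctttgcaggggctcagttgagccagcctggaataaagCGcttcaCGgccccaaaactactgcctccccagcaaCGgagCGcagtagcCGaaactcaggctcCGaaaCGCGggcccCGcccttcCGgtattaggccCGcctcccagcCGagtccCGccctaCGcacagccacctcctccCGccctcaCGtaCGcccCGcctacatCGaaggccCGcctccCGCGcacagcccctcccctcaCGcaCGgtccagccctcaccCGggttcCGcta
Adh1, chr3:138277335-138277634: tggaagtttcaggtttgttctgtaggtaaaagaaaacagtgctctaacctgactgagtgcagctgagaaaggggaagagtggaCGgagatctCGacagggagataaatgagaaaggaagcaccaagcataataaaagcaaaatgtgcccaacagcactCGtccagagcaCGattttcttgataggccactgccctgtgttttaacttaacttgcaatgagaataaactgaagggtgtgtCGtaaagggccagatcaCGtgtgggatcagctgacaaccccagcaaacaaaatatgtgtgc
Adh7, chr3:138217523-138217822: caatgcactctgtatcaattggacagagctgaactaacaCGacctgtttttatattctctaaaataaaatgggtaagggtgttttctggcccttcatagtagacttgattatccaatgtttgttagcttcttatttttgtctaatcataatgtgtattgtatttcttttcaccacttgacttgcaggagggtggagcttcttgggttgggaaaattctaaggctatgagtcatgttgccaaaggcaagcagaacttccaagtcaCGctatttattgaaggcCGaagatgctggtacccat
Aldh1a1, chr19:20601718-20602017: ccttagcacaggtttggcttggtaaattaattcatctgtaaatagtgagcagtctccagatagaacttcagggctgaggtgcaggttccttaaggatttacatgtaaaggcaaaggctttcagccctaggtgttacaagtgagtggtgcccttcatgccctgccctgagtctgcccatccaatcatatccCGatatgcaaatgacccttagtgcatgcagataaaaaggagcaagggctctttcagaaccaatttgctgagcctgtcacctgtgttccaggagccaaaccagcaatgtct

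The Adh5 window held 26 CG dinucleotides, more than 77.1% of the windows of 18245 genes, against 6 in the Adh1 window and 3 in the Adh7 window. Windows of genes with a median of at least 1 FPKM held a median of 21 CG dinucleotides, and windows of genes under 1 FPKM held a median of 4. Aldh1a1 departed from that pattern, with 1 CG dinucleotide in its window and the highest median level of the members. Cat with 11 and Aldh1b1 with 7 also lay under 14, the lower quartile for genes of at least 1 FPKM. The letters GGGCGG, searched on both strands and each holding 1 CG, were found 3 times in the Adh5 window and 0 times in those of Adh1, Adh7 and Aldh1a1, and 47.1% of all windows held them. The letters TATAAA, on both strands, stood 1 time each in the Adh7 and Cyp2e1 windows and in 13.0% of all windows. Windows were matched for 9 members, Aldh2 being without an entry, and that of Adh1 starts from a RefSeq start 60 bases from the start in the table. The other windows held 21 CG dinucleotides for Aldh3a2, 20 for Acss2, 11 for Cat, 7 for Aldh1b1 and 4 for Cyp2e1. Acss2 had GGGCGG 5 times, and Cat, Aldh1b1 and Aldh3a2 had it 1 time each. Among the 9 windows, only that of Acss2 matched TGACNNNGC, the core of the antioxidant response element, which 13.1% of all windows held. These matches describe letters and not binding.

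Adh5 stood at 78.1, 111 and 76.1 CPM in the ethanol libraries, against 75.4, 81.6 and 76.0 CPM in the control libraries. Ethanol 2 was high and the groups overlapped. Means were 88.4 ± 19.5 CPM in ethanol and 77.7 ± 3.44 CPM in control (SD, n = 3 each), and the log2 fold change came to 0.19 (SE 0.19, 95% interval -0.23 to 0.60, adjusted p = 0.724 in edgeR's quasi-likelihood test). Without ethanol 2 the log2 fold change was -0.02. The transcript that starts upstream, NM_001288578, had 0 reads in every library, so all Adh5 reads were assigned to NM_007410.

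Adh1, the class I enzyme that clears most ethanol in the liver, had 50, 39 and 8 estimated reads in the ethanol libraries, against 28, 34 and 21 in the control libraries. In CPM these were 0.80, 0.95 and 0.21 in ethanol and 0.49, 0.88 and 0.57 in control, and the groups overlapped. Means were 0.65 ± 0.39 CPM in ethanol and 0.65 ± 0.21 CPM in control (SD, n = 3 each). The log2 fold change was 0.03 (SE 0.63), and its 95% interval of -1.39 to 1.45 is too wide to give a direction (adjusted p = 0.989 by edgeR). Its sign turned in the fit without ethanol 2 (-0.34). Adh7, the class IV enzyme of the stomach lining, which also oxidises retinol, had 19, 0 and 5 reads in ethanol, against 13, 9 and 0 in control. Adh7 was not tested, no fold change is given, and the locus lies inside the noncoding gene 0610031O16Rik, which was listed at a median of 0 FPKM.

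The other enzymes that make acetaldehyde were catalase, whose gene Cat lies on chromosome 2 from 103453904 to 103485153, and Cyp2e1, on chromosome 7 from 140763832 to 140774977. Cat stood at 72.4, 62.2 and 71.7 CPM in ethanol, against 68.4, 83.2 and 67.7 CPM in control. The highest value was that of control 2, the lowest that of ethanol 2, and the groups overlapped. Means were 68.8 ± 5.72 CPM in ethanol and 73.1 ± 8.75 CPM in control (SD, n = 3 each), and the log2 fold change came to -0.09 (SE 0.16, 95% interval -0.46 to 0.28, adjusted p = 0.867 by edgeR), which was 0.02 without control 2. Cyp2e1, an enzyme that ethanol induces in liver, had 9, 11 and 0 reads in ethanol, against 10, 0 and 7 in control. With 0 to 11 reads in each library, a difference in Cyp2e1 was not detectable at this depth.

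The members that remove acetaldehyde had the largest fold changes, though none passed the threshold. Aldh2, on chromosome 5 from 121566027 to 121593824, encodes the mitochondrial enzyme that oxidises most acetaldehyde. It stood at 169, 145 and 125 CPM in ethanol, against 121, 108 and 114 CPM in control. The groups did not overlap, ethanol being higher in 3 of 3 libraries than any control library. Means were 146.0 ± 21.95 CPM in ethanol and 114 ± 6.07 CPM in control (SD, n = 3 each). The log2 fold change was 0.35 (SE 0.17, 95% interval -0.02 to 0.72, adjusted p = 0.478 by edgeR), or 1.28-fold, and it lay between 0.24 and 0.46 when each library was left out in turn.

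Aldh1b1, on chromosome 4 from 45799022 to 45804608, encodes a mitochondrial relative of Aldh2. It stood at 19.1, 21.7 and 13.1 CPM in ethanol, against 12.6, 12.7 and 11.6 CPM in control. Ethanol 3 lay only just above the highest control library. The means were 17.97 ± 4.39 CPM in ethanol and 12.3 ± 0.60 CPM in control (SD, n = 3 each), and the log2 fold change came to 0.55 (SE 0.21, 95% interval 0.08 to 1.02, adjusted p = 0.448 by edgeR). This was the largest fold change of the 8 tested members and the only one with an unadjusted p under 0.05. It was 0.38 without ethanol 2 and 0.73 without ethanol 3. Per length, these mitochondrial enzymes summed to 39.95, 37.7 and 32.25 FPKM in ethanol, against 31.8, 29.7 and 29.5 FPKM in control, with Aldh2 giving most of each sum.

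Aldh3a2, on chromosome 11 from 61223417 to 61267528, encodes the fatty aldehyde dehydrogenase of the endoplasmic reticulum. It stood at 63.7, 60.2 and 58.5 CPM in ethanol, against 49.6, 54.2 and 49.5 CPM in control. The groups did not overlap, and means were 60.8 ± 2.64 CPM in ethanol and 51.1 ± 2.70 CPM in control (SD, n = 3 each). The log2 fold change was 0.25 (SE 0.15, 95% interval -0.08 to 0.58, adjusted p = 0.553 by edgeR).

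Reads of Aldh3a2 were split among 4 transcripts. The main transcript, NM_007437, held 61.6%, 62.5% and 62.9% of the summed FPKM in ethanol, against 70.1%, 78.2% and 62.2% in control. NM_001331114 held 35.5%, 37.0% and 32.1% in ethanol, against 28.0%, 19.8% and 35.2% in control, with overlap between the groups. As single transcripts, NM_001331114 had a log2 fold change of 0.61 (SE 0.24) and NM_007437 one of 0.08 (SE 0.16), with adjusted p-values of 0.75 and 0.949 by edgeR over 22527 transcripts.

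The noncoding transcript NR_138545 had lower values in ethanol. It had 27, 13 and 13 reads in ethanol, against 52, 39 and 46 in control. In FPKM these were 0.10, 0.08 and 0.09 in ethanol, against 0.25, 0.28 and 0.34 in control. No ethanol library reached the lowest control library. The share of transcripts that lie apart in this way was not counted, and among tested genes 8.41% lay below in ethanol. The log2 fold change of NR_138545 was -1.51 (SE 0.42, adjusted p = 0.75 by edgeR over transcripts), and 0% of transcripts passed the threshold. NM_001331115 had 88, 0 and 99 reads in ethanol and 0 in each control library. The counts are estimates shared out among transcripts that overlap, so the split is less certain than the sum.

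**Figure D2:**
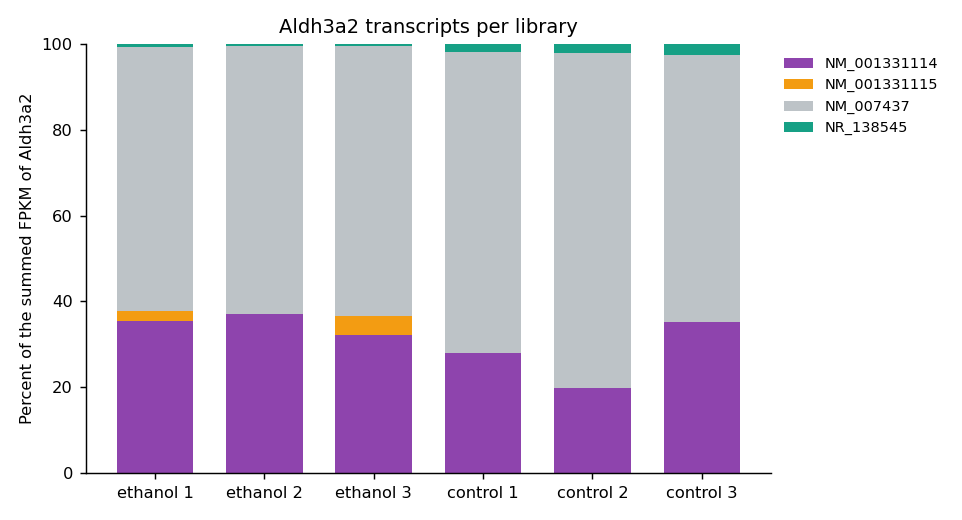
Percent of the summed FPKM of Aldh3a2 (vertical axis) held by each of its 4 transcripts in each library, ethanol libraries left of control libraries. The share of NR_138545 was 0.54% to 0.70% in ethanol and 1.89% to 2.63% in control.

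Aldh2 had a second transcript, NM_001308450, which held 3.81%, 4.72% and 5.28% of its FPKM in ethanol, against 3.94%, 6.65% and 2.59% in control. These shares overlapped. The main transcript, NM_009656, had a log2 fold change of 0.37 (SE 0.15), close to that of the gene.

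Aldh1a1, on chromosome 19 from 20601982 to 20643462, was the 1 aldehyde dehydrogenase among the members with a negative log2 fold change. It stood at 128, 72.7 and 91.7 CPM in ethanol, against 125, 120 and 117 CPM in control. Ethanol 1 lay above all control libraries, and the other ethanol libraries lay below them. Means were 97.3 ± 27.8 CPM in ethanol and 121 ± 3.81 CPM in control (SD, n = 3 each), and the log2 fold change came to -0.31 (SE 0.21, 95% interval -0.78 to 0.16, adjusted p = 0.595 by edgeR), which was -0.55 without ethanol 1 and -0.15 without ethanol 2. Its near copy Aldh1a7, which lies next to it on chromosome 19, stood at 0.42 ± 0.19 FPKM in ethanol and 0.58 ± 0.27 FPKM in control (SD, n = 3 each), and reads shared between these paralogs may have been split wrongly.

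Aldh1a1 is also a known marker of a subset of midbrain dopamine neurons that project to the striatum. Markers of midbrain dopamine neurons were also found in these samples of nucleus accumbens core, and where that RNA came from was not tested. Slc6a3, the dopamine transporter gene, stood at 160, 27.2 and 76.0 CPM in ethanol, against 129.8, 92.6 and 118.9 CPM in control. Th, the first enzyme of dopamine synthesis, stood at 121, 35.0 and 94.0 CPM in ethanol, against 119, 71.9 and 87.3 CPM in control. The list for dopaminergic cell bodies held Slc6a3, Th, Ddc and Slc18a2. Its 4 genes summed to 103 to 379 CPM in ethanol and 248 to 346 CPM in control, and none was at 0 in any library. Slc18a2, the vesicular monoamine transporter gene, was the marker of the 4 that did not overlap, beside 8.41% of all tested genes that lay below in ethanol. It stood at 21.7, 7.21 and 23.4 CPM in ethanol, against 32.9, 30.04 and 30.4 CPM in control (log2 fold change -0.84, SE 0.36, adjusted p = 0.459 by edgeR). Ethanol 2 was the lowest library for Aldh1a1 and for each of these markers. In bulk tissue, fewer cells of a type and less RNA per cell cannot be told apart, and the part of these cells in the Aldh1a1 values was not tested.

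**Figure D3:**
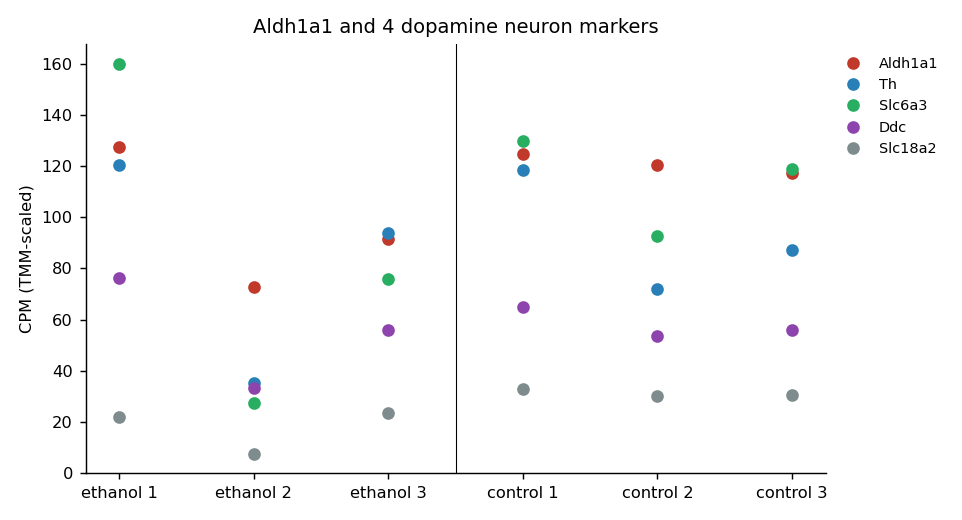
CPM (vertical axis) of Aldh1a1 and of the dopamine neuron markers Th, Slc6a3, Ddc and Slc18a2 in each library, ethanol left of control. All 5 genes were lowest in ethanol 2, where Aldh1a1 stood at 72.7 CPM and Slc6a3 at 27.2 CPM.

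Acss2, the acetyl-CoA synthetase of cytosol and nucleus, supplies acetyl groups from acetate, and in mouse brain it is known to pass ethanol-derived acetate on to histones. Its gene lies on chromosome 2 from 155518043 to 155562743. It stood at 84.2, 49.6 and 59.1 CPM in ethanol, against 58.0, 58.6 and 59.0 CPM in control. Ethanol 1 was high, ethanol 2 was low, and the control libraries lay between them. Means were 64.3 ± 17.9 CPM in ethanol and 58.5 ± 0.47 CPM in control (SD, n = 3 each), and the log2 fold change came to 0.14 (SE 0.21, 95% interval -0.32 to 0.60, adjusted p = 0.831 by edgeR), which was -0.10 without ethanol 1. The noncoding gene Acss2os overlaps 9891 bases of the locus and was listed at a median of 0 FPKM.

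**Figure D4:**
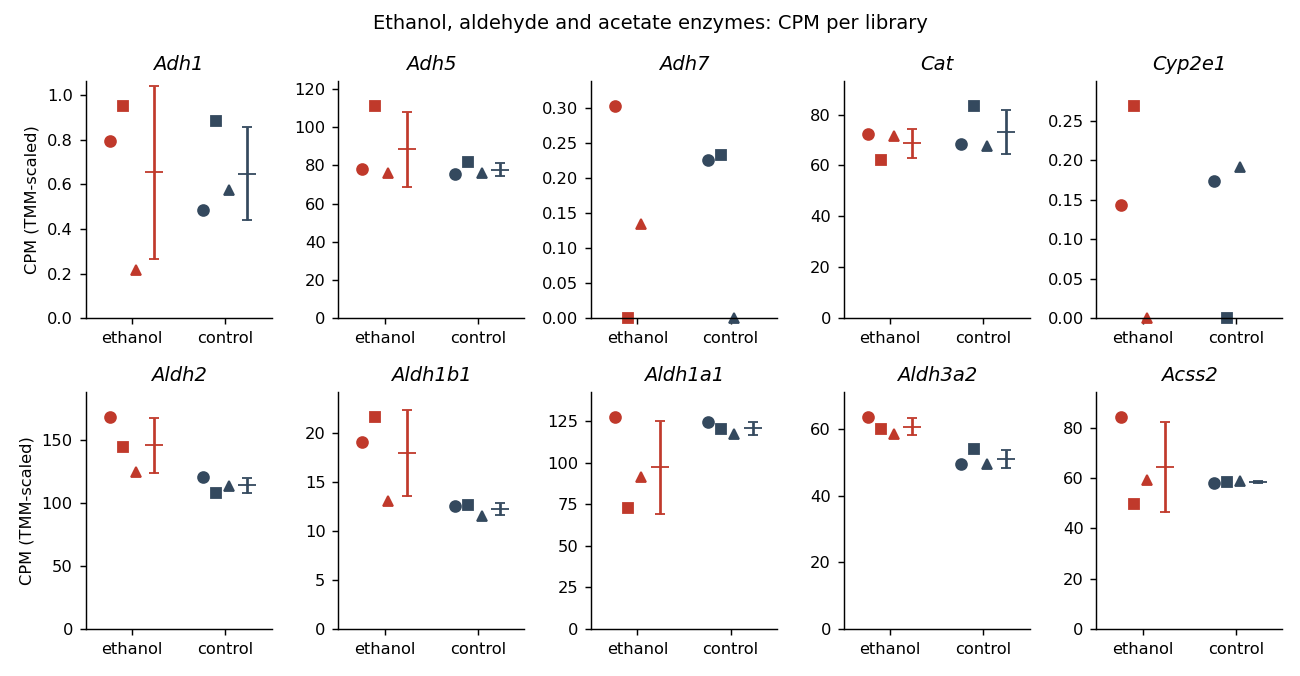
CPM (vertical axis, from 0) of each member in every library, ethanol in red left of control in dark blue (circle, library 1; square, library 2; triangle, library 3), with mean and SD of 3 libraries as a bar for the 8 tested genes. Aldh2, Aldh1b1 and Aldh3a2 are the members whose ethanol libraries all lie above the control libraries.

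Over the 8 tested members, 6 had a positive log2 fold change and 2 a negative one, beside 8312 positive among all 15774 tested genes. The median of the members was 0.16 beside a median of 0.02 over all tested genes. With total counts in place of TMM scaling the split was 5 to 3, and without ethanol 1 or without ethanol 2 it was 4 to 4. Without control 1 it was 5 to 3. In the fits without ethanol 3, control 2 or control 3, 9 members were tested. The splits there were 7 to 2, 8 to 1 and 5 to 4. The median of the members was 0.06 without ethanol 1, 0.28 without ethanol 3 and 0.30 without control 2. By edgeR's quasi-likelihood test 0 members passed an adjusted p of 0.05, and 0% of the 15774 genes did. At an unadjusted p under 0.05 there was 1 member, Aldh1b1, beside 10.7% of all genes, 5.31% being higher and 5.34% lower in ethanol. DESeq2 called 144 of 15774 genes and 0 of 8 members, with 2 of 8 members at an unadjusted p under 0.05 beside 1923 of 15774 genes. Without ethanol 2 edgeR called 211 of 15920 genes, again with 0 of 8 members among them. At such small shares of all genes, 0 of 8 says little about the members.

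The groups did not overlap in CPM for 3 of 8 members, beside 17.8% of all tested genes. In these 3, Aldh2, Aldh1b1 and Aldh3a2, the ethanol libraries lay above the control libraries in CPM, beside 9.35% of all genes. In 0 of 8 they lay below, beside 8.41%. The separation depended on the scale. In FPKM, Aldh1b1 overlapped, with 4.74 in ethanol 3 and 4.75 in control 2, and Aldh1a1 lay below control in all ethanol libraries, with 28.3 to 47.6 FPKM in ethanol and 48.8 to 52.5 FPKM in control. In TPM, FPKM rescaled to a fixed sum per library, only Aldh1b1 kept its separation, at 13.4 to 17.9 TPM in ethanol and 10.3 to 12.1 TPM in control.

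**Figure D5:**
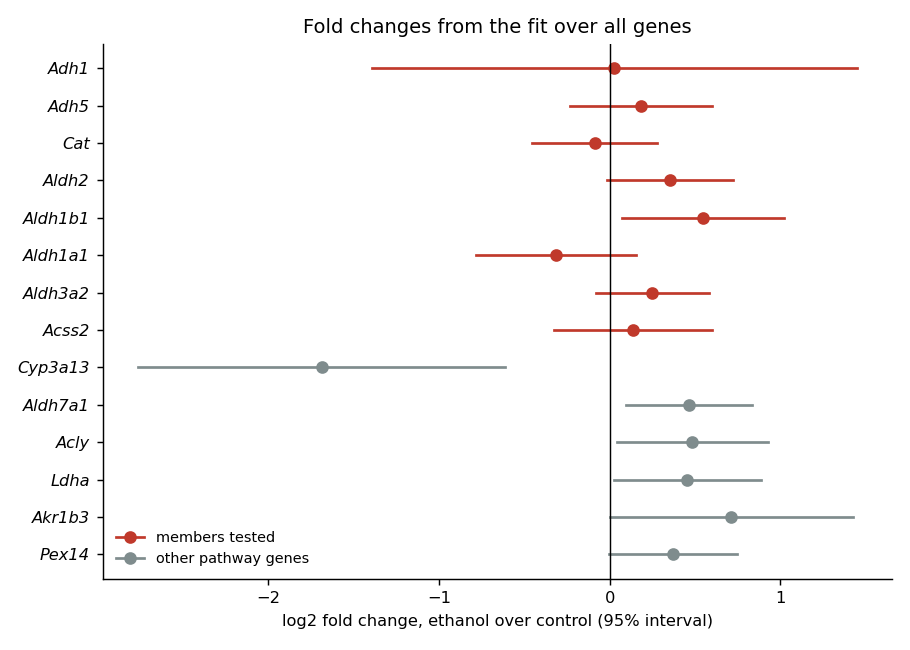
Log2 fold change of ethanol over control (horizontal axis) with its 95% interval for the 8 tested members (red) and 6 other genes of the pathway (grey), from the fit over all genes. The interval of every member but Aldh1b1 holds 0.

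The wider pathway was taken from 62 further genes in 7 lists, of which 61 were in the table and 55 were tested. Of these, 39 had a positive and 16 a negative log2 fold change, beside 8312 positive among all 15774 tested genes. The median was 0.14 beside 0.02 over all genes, and 0 of the 55 passed the adjusted threshold. Ethanol libraries lay above control libraries in 15 of the 55, beside 9.35% of all tested genes, and below them in 2, beside 8.41%. At an unadjusted p under 0.05 there were 4 higher, beside 5.31% of all tested genes, and 1 lower, beside 5.34%. The lower gene was Cyp3a13, a microsomal P450, at 0.53, 0.75 and 1.91 CPM in ethanol, against 3.16, 2.86 and 4.13 CPM in control. Its log2 fold change was -1.69 (SE 0.48, adjusted p = 0.419 by edgeR).

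Among the other aldehyde dehydrogenases, 9 of 15 were positive and 6 negative, beside 8312 positive among all 15774 tested genes, with a median of 0.09. Aldh7a1, which oxidises an aldehyde of lysine breakdown, had the smallest p of them and stood at 119.7, 99.5 and 91.5 CPM in ethanol, against 77.5, 71.1 and 76.5 CPM in control (log2 fold change 0.47, SE 0.16, adjusted p = 0.439 by edgeR). Its groups did not overlap, as in 4 of the 15, beside 9.35% of all tested genes that lay above in ethanol. Of the acetate and acetyl-CoA genes, 7 of 10 were positive, with a median of 0.06. Acly, which makes cytosolic acetyl-CoA from citrate, stood at 362, 239 and 258 CPM in ethanol, against 186, 233 and 196 CPM in control (log2 fold change 0.49, SE 0.20, adjusted p = 0.448 by edgeR), and its log2 fold change was 0.28 without ethanol 1.

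The other lists held similar values, and their counts of positive genes stand beside 8312 positive among all 15774 tested genes. All 8 genes of the NADH shuttles and lactate dehydrogenase were positive, with a median of 0.17 and a range of 0.04 to 0.46, and Ldha, a subunit of lactate dehydrogenase, led them at 302 ± 66.6 CPM in ethanol and 220 ± 23.1 CPM in control. Of the other alcohol dehydrogenases and aldehyde reductases, 4 of 4 tested were positive, with a median of 0.23, and Akr1b3, aldose reductase, stood at 13.0 ± 2.95 CPM in ethanol and 7.92 ± 3.14 CPM in control. Of the peroxisome and peroxide genes, 6 of 9 were positive, with a median of 0.13, and Pex14, a docking protein for import into peroxisomes, stood at 76.9 ± 10.7 CPM in ethanol and 59.4 ± 3.72 CPM in control. The adjusted p-values of Ldha, Akr1b3 and Pex14 in edgeR were 0.458, 0.468 and 0.469. The log2 fold change of Ldha was 0.46, and 0.27 without ethanol 2, and that of Akr1b3 was 0.71, and 0.42 without control 3. The P450 list had 3 of 5 positive genes and a median of 0.15, and the list of non-oxidative ethanol products had 2 of 4 and a median of 0.08.

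Markers of 13 cell types were summed in each library. The sums overlapped between the groups for 11 lists. The 10 astrocyte markers summed to 2785 to 3282 CPM in ethanol and 2374 to 2788 CPM in control, a narrow overlap. Of the 10, 3 did not overlap, all higher in ethanol, beside 9.35% of all tested genes. Aqp4 and S100b had negative log2 fold changes of -0.30 and -0.10. The sum of the 7 mural cell markers lay lower in ethanol, at 184 to 195 CPM, against 203 to 247 CPM in control. Of these 7, 1 did not overlap, Rgs5, beside 8.41% of all tested genes that lay below in ethanol. Rgs5 stood at 45.6 ± 12.5 CPM in ethanol and 74.98 ± 12.3 CPM in control (SD, n = 3 each). Kcnj8 and Tagln had positive log2 fold changes of 0.12 and 0.23. The sum of the 10 meningeal fibroblast markers lay lower too, at 50.6 to 58.3 CPM in ethanol, against 63.95 to 109 CPM in control. Of these 10, 2 did not overlap, both lower in ethanol, beside the same 8.41%.

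No marker of these 3 lists was at 0 in any library. The 10 medium spiny neuron markers summed to 1631 to 3585 CPM in ethanol and 1654 to 1997 CPM in control. Of these 10, 3 did not overlap, all higher in ethanol, beside 9.35% of all tested genes. The sum was highest in ethanol 2, where Adh5 was highest too. Microglia markers (782 CPM) and blood cell markers (446 CPM) also had their highest sums in ethanol 2. The 6 pan-neuronal markers went the other way, with their lowest sum in ethanol 2, at 3314 CPM, against 3755 to 4097 CPM in every other library. The 7 markers of cortical glutamatergic neurons summed to 509.6 to 804 CPM in ethanol and 560 to 1003 CPM in control, with Camk2a giving 464 to 770 CPM of it and Emx1 at 0 in control 2. Slc17a7, the vesicular glutamate transporter that marks these neurons, stood at 24.7, 9.42 and 55.95 CPM in ethanol, against 289, 58.2 and 102 CPM in control. It was lower in 3 of 3 ethanol libraries, beside 8.41% of all tested genes, with a log2 fold change of -2.32 (SE 0.68, adjusted p = 0.419 by edgeR). Neurod6 and Neurod2 overlapped, with log2 fold changes of -2.10 and -1.99.

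Choroid plexus and ependymal markers summed to 458 CPM in control 3, against 47.0 to 68.1 CPM in every other library. The part of these cells in the values of Aldh2, Aldh3a2, Adh5 and the other members was not tested.

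For each of the 7 well-expressed members, the genes whose log2 CPM followed it most closely over the 6 libraries were looked up among 10724 others, as a description with no test. Aldh2 went with Sphk2 (Pearson's r = 0.997), a sphingosine kinase gene, and Fntb (0.993), a farnesyltransferase subunit. Acss2 went with Cs (0.998), the citrate synthase gene, and Sort1 (0.996). Aldh1b1 went with Tmem109 and Rtcb, Adh5 with Nfu1 and Med28, Aldh3a2 with Entpd2 and Vcp, and Aldh1a1 with Csrnp2 and Dusp7, all between 0.986 and 0.995. Cat had the least close neighbours, Col1a2 (0.979), a collagen gene, and Cbln4 (0.976). The libraries share their scaling and depth, and these genes were selected for these values.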

How the data were processed

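The authors deposited 1 table with a row per RefSeq transcript and, per the file headers, a read count and an FPKM value for each of 6 samples. The deposited read counts are estimated counts: with a tolerance of 0.05 reads, 100% of the transcripts checked equalled FPKM times length times 1 library size, rounded up. The mm10 build and the tool bcl2fastq come from the submitters' processing notes, where no version stands. Aligner, counter and strand setting are not given in the sources used. FPKM, as deposited by the authors, were summed per gene and used for levels alone.

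The 36780 transcripts were summed to 24532 genes by gene identifier, of which 10 carried 2 symbols. After filterByExpr (minimum count 10) and TMM scaling, the comparison used edgeR 4.0.16 (quasi-likelihood test) in R 4.3.3, two-sided, with Benjamini-Hochberg adjustment over 15774 genes and a threshold of 0.05. The standard error is the size of the log2 fold change over the square root of F. CPM are per 1e6 TMM-scaled reads. The test was checked on simulated counts. With 3 against 3 an exact permutation test cannot go below 0.1, so none was run.

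Alternatives were DESeq2 1.42.0, limma-voom (limma 3.58.1) without and with sample weights, different scalings and filters, a replicate block, unsummed transcripts, TPM, and fits without each sample. The text names all members, the 6 other pathway genes with the smallest unadjusted p, the 2 genes most like each member with a mean log2 CPM of at least 3, tissue markers, and marker lists without overlap. Other marker lists and genes, and Aldh1a7, were named after their values were seen. Members and lists were chosen with earlier results of these data known. Promoter windows are RefSeq's (GRCm38.p6), 1 per gene, nearest to the start of its main transcript in the table.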

Additional observations from a re-analysis of the deposited data

How the results depend on the processing

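The count of members called was 0 as reported and in every alternative run. The count of all genes called was 0, 144 with DESeq2 and from 0 to 211 when each library was left out (211 without ethanol 2, 1 without control 1). As genes, Aldh2, Aldh1b1, Aldh1a1 and Aldh3a2 kept their sign in every alternative run. Adh1 turned negative with total counts only (-0.081), limma-voom (-0.056), limma-voom with sample weights (-0.37) and the replicate block (-0.13), and lay between -0.34 and 0.43 with 1 library left out. With 1 library left out Adh5 lay between -0.022 and 0.29, Cat between -0.14 and 0.018, and Acss2 between -0.10 and 0.28. For Aldh3a2, tested as single transcripts, NR_138545 was at -1.51. In TPM Adh7 and Cyp2e1 exchanged ranks.

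Same-numbered samples had correlations of 0.15, -0.03 and -0.02 over genes, against -0.22 to 0.19 between samples of unlike number. With 3 samples per group this check cannot exclude a pairing by number. With the replicate block 0 genes were called and 1645, against 1681 without it, had an unadjusted p under 0.05. Depth limits Adh1, Adh7 and Cyp2e1, with at most 50 reads in a library.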

Other observations

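The following values were picked after they were seen and carry no test. The ratio of Aldh2 to Aldh1a1 in FPKM, which needs no scaling between libraries, was 0.71, 1.07 and 0.73 in the ethanol libraries, against 0.52, 0.49 and 0.52 in the control libraries. The groups did not overlap, for a pair of members whose log2 fold changes had opposite signs. The share of gene pairs that separate in this way was not counted.

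Of the 8 tested members, 6 varied more among the ethanol libraries than among the control libraries. For Acss2 the SD of log2 CPM was 0.39 in ethanol and 0.01 in control, for Aldh1a1 it was 0.41 in ethanol and 0.05 in control, and for Adh5 it was 0.30 in ethanol and 0.06 in control. Cat and Aldh3a2 varied more in control. The wider spread in ethanol was not particular to these enzymes, since it was found in 74.3% of the 15774 tested genes and in 83.3% of those with a mean log2 CPM of at least 3.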
